A study of Mus musculus with 6 samples.

Results

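Surface mucins and uroplakins were examined in uteri of mice aged 2 weeks, as 10 genes: the mucins Muc1, Muc4, Muc16 and Muc20, and the uroplakins Upk1a, Upk1b, Upk2, Upk3a, Upk3b and Upk3bl. Every probe set whose platform annotation gave exactly 1 symbol equal to a listed gene was taken, which gave 17 of the 41420 probe sets on the array, 7 for mucins and 10 for uroplakins. All 10 genes were measured, 6 of them by 1 probe set only. The tissue came from intact females, and total RNA of 6 samples was hybridised to Affymetrix expression arrays, 1 array each: 3 samples of the genotype Arid1a f/f and 3 of Arid1a d/d. The Arid1a protein is a DNA-binding part of the SWI/SNF (BAF) chromatin remodeller, and by convention f denotes an allele flanked by loxP sites and d its deleted form. The labels name no Cre driver, no cell type in which the deletion took place, and no link from arrays to animals or pools. The p-values therefore measure the spread between samples, which can be technical. By its title, the study asked whether glands of the endometrium form without Arid1a.

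Transmembrane mucins are heavily O-glycosylated proteins that extend from the apical surface of epithelial cells and form part of the glycocalyx. In the uterus they are best known as a coat of the luminal epithelium that bears on attachment of the embryo, and Muc1 is the member most studied there. Uroplakins are integral membrane proteins that assemble into plaques on the apical surface of the bladder: Upk1a and Upk1b are tetraspanins that pair with Upk2 and with Upk3a or Upk3b. Some uroplakins are also made outside the bladder, and Upk3b is a marker of mesothelium, the sheet of cells that covers the outer wall of abdominal organs.

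Muc1 and Upk3bl rose in d/d uteri, and the other 8 genes did not pass the test. Levels are log2 of the deposited intensity. Differences are d/d minus f/f from limma, adjusted by Benjamini-Hochberg over all 41420 probe sets with a threshold of 0.05. Of the 17 probe sets 2 rose, 0 fell and 15 did not pass, against 0.524% of all probe sets that passed, 0.314% higher and 0.21% lower. At an unadjusted p under 0.05, 2 were higher and 1 was lower. The median log2 difference was 0.023 over the 17 probe sets and -0.0041 over all probe sets. The fit of 1 probe set a gene likewise called 2 of the 10 genes higher and 0 lower, against 0.63% and 0.512% of 16813 genes.

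The 250 bases before the RefSeq start sites of Muc1 and Upk3bl are shown because these are the members that rose, and those of Upk3b because it is the gene next to Upk3bl and did not pass. The sequences are those of the RefSeq table on GRCm38.p6, plus strand, at chr3:89228806-89229055, chr5:136057017-136057266 and chr5:136038246-136038495 in the order below. Capitals mark matches, on either strand, to the TATA box TATAAA, the GC box GGGCGG, the E-box CACCTG, the hexamer TGTTCT that progesterone and glucocorticoid receptors can bind, and the AP-1 site TGANTCA.
Muc1: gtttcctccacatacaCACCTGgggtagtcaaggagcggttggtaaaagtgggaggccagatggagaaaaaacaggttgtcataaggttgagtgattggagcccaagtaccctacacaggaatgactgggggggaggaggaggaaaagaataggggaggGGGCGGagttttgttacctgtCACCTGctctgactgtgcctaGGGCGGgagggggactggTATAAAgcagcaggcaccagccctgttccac
Upk3bl: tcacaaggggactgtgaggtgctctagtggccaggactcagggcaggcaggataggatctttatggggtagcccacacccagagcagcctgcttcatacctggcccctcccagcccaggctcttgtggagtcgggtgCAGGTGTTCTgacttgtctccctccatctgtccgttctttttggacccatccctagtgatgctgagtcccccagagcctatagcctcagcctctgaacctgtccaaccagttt
Upk3b: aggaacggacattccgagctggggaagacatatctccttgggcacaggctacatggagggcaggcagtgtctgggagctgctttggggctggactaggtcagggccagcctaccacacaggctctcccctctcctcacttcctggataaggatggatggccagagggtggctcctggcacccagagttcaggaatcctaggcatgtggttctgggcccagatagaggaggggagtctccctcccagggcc

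The Muc1 window held 1 TATA box, 2 GC boxes and 2 E-boxes. The Upk3bl window held 1 E-box and 1 TGTTCT hexamer, which share letters with each other, and the Upk3b window held no match to these 5 motifs. Among 32851 windows of the same length in the table, 12.4% held the TATA box, 32.7% the GC box, 17.2% the E-box, 16.1% the hexamer and 6.75% the AP-1 site. Of the 10 genes 8 had a window in the table, and 2 of these held the TATA box, 2 the GC box, 3 the E-box, 2 the hexamer and 0 the AP-1 site. A match of letters is a description of the sequence and no measure of binding.

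Muc1, the transmembrane mucin of the uterine lumen, was measured by probe set 1449199_at. Its log2 levels were 4.67, 4.69 and 4.68 in arrays f/f 1, 2 and 3, whereas d/d 1, 2 and 3 stood at 5.40, 5.85 and 5.87. All d/d arrays lay above all f/f arrays, and the lowest d/d level was that of d/d 1. On the linear scale the f/f intensities were 25.5, 25.8 and 25.7, and the d/d intensities 42.3, 57.5 and 58.5. The f/f mean was 4.68 ± 0.010 (SD, n = 3) and the d/d mean 5.71 ± 0.26 (SD, n = 3), so nearly all of the spread was among the d/d arrays. Muc1 rose 2.04-fold, a log2 difference of 1.03 ± 0.13 (SE; 95% interval 0.72 to 1.33; limma adjusted p = 0.0205).

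Upk3bl, a uroplakin 3B-like gene, was measured by probe set 1429844_at, with log2 levels of 4.02, 3.80 and 3.59 in f/f 1, 2 and 3, and of 6.50, 5.50 and 5.53 in d/d 1, 2 and 3. All d/d arrays lay above all f/f arrays, and here d/d 1 was the highest of the 6, whereas for Muc1 it was the lowest of the d/d arrays. The f/f intensities were 16.2, 14.0 and 12.1, and the d/d intensities 90.2, 45.2 and 46.3. The means were 3.80 ± 0.21 and 5.84 ± 0.57 (SD, n = 3). Upk3bl rose 4.11-fold, a log2 difference of 2.04 ± 0.26 (SE; 95% interval 1.45 to 2.63; limma adjusted p = 0.0198). The groups of 2 of the 17 probe sets, those of Muc1 and Upk3bl, lay apart with d/d above, and those of 2 others lay apart with d/d below. Over all probe sets the shares were 6.67% and 7.47%.

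**Figure D1:**
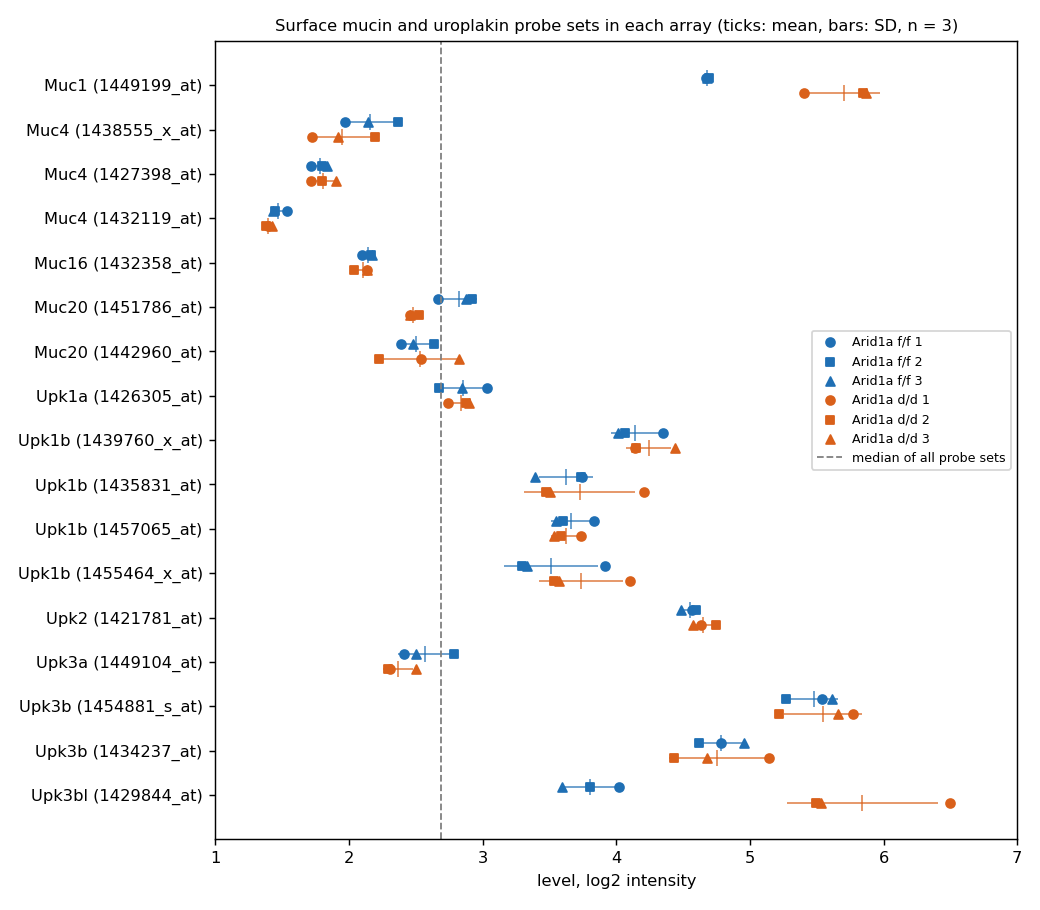
Log2 intensity (x axis) of the 17 probe sets (y axis) in each of the 6 arrays, with f/f in blue, d/d in orange and a marker shape for each replicate number; ticks are means, bars are SD (n = 3) and the dashed line is the median of all probe sets, 2.69. The groups stand clear of each other for Muc1 and Upk3bl, while the markers of most other rows overlap.

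Both calls rested on few arrays. Leaving out any single array other than d/d 1 ended them, with adjusted p of 0.0744 to 0.117 for Muc1 and 0.0518 to 0.117 for Upk3bl, and log2 differences of 0.94 to 1.03 and of 1.93 to 2.21. Without d/d 1 both passed, with adjusted p of 0.00198 and 0.00179 and log2 differences of 1.18 and 1.71. The changes in calls were not particular to these 2 genes. Over all genes, 192 were called with all arrays and 820 without d/d 1. Between 25 and 84 were called when another single array was left out. Array d/d 1 stands apart from its group, in that over all probe sets it correlated best with f/f 1 (r = 0.995), and its correlations with d/d 2 and d/d 3 were 0.990 and 0.991. Array f/f 1 in turn correlated best with d/d 1, and its correlations with f/f 2 and f/f 3 were 0.994 and 0.993. Without both arrays numbered 1, Muc1 had a log2 difference of 1.17 (adjusted p = 0.00884) and Upk3bl of 1.82 (adjusted p = 0.00538).

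The 3 other mucins were dim. Muc4, the large mucin that carries EGF-like domains and can bind ERBB2, had 3 probe sets, all under the median of all probe sets in every array. Its brightest, 1438555_x_at, stood at 1.97, 2.37 and 2.14 in f/f 1, 2 and 3, and at 1.73, 2.19 and 1.92 in d/d 1, 2 and 3, with a log2 difference of -0.22 ± 0.15 (SE; limma adjusted p = 0.717). The groups overlapped. The other Muc4 probe sets had log2 differences of 0.023 and -0.074, and the groups of the latter, 1432119_at, did not overlap although its levels spanned only 1.38 to 1.54. Muc16, the CA125 mucin, which binds mesothelin, lay between 2.04 and 2.17 in all 6 arrays (log2 difference -0.042 ± 0.082 SE; limma adjusted p = 0.926). Near the background the arrays can show little of a difference, so these values bound no change of an expressed transcript.

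Muc20, a mucin reported to bind the receptor MET, had the lowest unadjusted p among the members that did not pass. Probe set 1451786_at stood at 2.67, 2.92 and 2.88 in f/f 1, 2 and 3, and at 2.46, 2.53 and 2.46 in d/d 1, 2 and 3. The d/d levels were all lower than the lowest f/f level, and the log2 difference was -0.34 ± 0.096 (SE; 95% interval -0.56 to -0.12; limma adjusted p = 0.239). The other Muc20 probe set, 1442960_at, had a log2 difference of 0.027 with overlapping groups. Muc4 and Muc20 are neighbours whose RefSeq gene spans overlap.

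Among the tetraspanin uroplakins, Upk1b was measured by 4 probe sets and Upk1a by 1. The brightest Upk1b probe set, 1439760_x_at, stood at 4.35, 4.06 and 4.01 in f/f 1, 2 and 3, and at 4.14, 4.15 and 4.44 in d/d 1, 2 and 3, and the groups overlapped. Its log2 difference was 0.10 ± 0.13 (SE; 95% interval -0.19 to 0.39; limma adjusted p = 0.864), and those of the other 3 were 0.10, -0.042 and 0.23. In probe sets 1435831_at and 1455464_x_at, d/d 1 was the highest of all arrays, at 4.20 and 4.10, and d/d 2 and d/d 3 lay between 3.47 and 3.57. Upk1a, whose pairing with Upk2 is a building block of the bladder plaque, lay between 2.68 and 3.03 in all arrays (log2 difference -0.014 ± 0.11 SE; limma adjusted p = 0.981).

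The partners of the tetraspanins did not pass either. Upk2, the partner of Upk1a, stood at 4.57, 4.60 and 4.48 in f/f 1, 2 and 3, and at 4.63, 4.75 and 4.58 in d/d 1, 2 and 3. The groups overlapped between d/d 3 and f/f 2, and the log2 difference was 0.10 ± 0.088 (SE; 95% interval -0.10 to 0.30; limma adjusted p = 0.799). Upk3a, a partner of Upk1b in the bladder plaque, lay under the median of all probe sets on average, between 2.30 and 2.79, with a log2 difference of -0.20 ± 0.12 (SE; limma adjusted p = 0.673). Upk3b, the mesothelial uroplakin, was well above that median: its brightest probe set, 1454881_s_at, stood at 5.54, 5.27 and 5.61 in f/f 1, 2 and 3, and at 5.77, 5.22 and 5.66 in d/d 1, 2 and 3. The groups overlapped, and the log2 difference was 0.072 ± 0.16 (SE; 95% interval -0.29 to 0.44; limma adjusted p = 0.935). The other Upk3b probe set, 1434237_at, had a log2 difference of -0.034 ± 0.18 (SE).

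**Figure D2:**
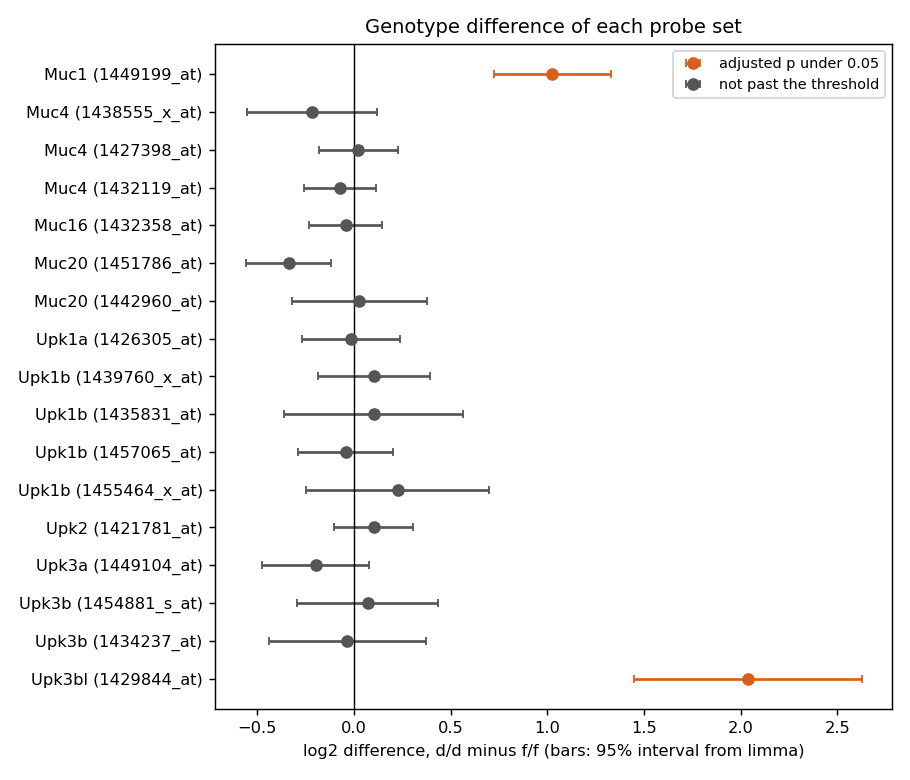
Log2 difference of each probe set, d/d minus f/f (x axis), with its 95% interval from limma; orange marks probe sets with an adjusted p under 0.05. Muc1 at 1.03 and Upk3bl at 2.04 stand to the right, and the other 15 lie between -0.34 and 0.23.

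Upk3b and Upk3bl are adjacent genes in RefSeq, with Dtx2 and Rasa4 on either side of the pair, and their differences diverged. The log2 level of Upk3bl minus that of Upk3b was -1.52, -1.47 and -2.02 for arrays f/f 1, 2 and 3, whereas it was 0.73, 0.28 and -0.12 for d/d 1, 2 and 3. All d/d arrays lay above all f/f arrays, a shift of 1.97 (2-sided exact permutation p = 0.1). That is the smallest p that 3 against 3 arrays allow, and it was 0.15 adjusted over the 6 such comparisons made. Upk3bl alone already set the groups apart and Upk3b hardly moved, so this p-value is no further evidence. The within-array comparisons were all chosen after values were seen. Upk3bl also differed more between the genotypes than Muc1 did, by 1.01, with values of -0.65, -0.89 and -1.09 for the f/f arrays and 1.09, -0.35 and -0.34 for the d/d arrays (exact permutation p = 0.1, adjusted 0.15). Without d/d 1 the Upk3bl rise, at 1.71, was still above that of Muc1, at 1.18.

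Of 21 listed markers of simple epithelium 14 were measured: 1 rose, 0 fell and 13 did not pass. Over all genes 0.63% rose and 0.512% fell. Values were higher in d/d for 10 of the 14 markers and lower for 4, with a median log2 difference of 0.35, against -0.011 over all genes. The groups of 7 markers lay apart with d/d above and those of 1 with d/d below, against 1193 and 1584 of 16813 genes. The one that rose was Cdh1, the epithelial cadherin, from 8.04 ± 0.13 to 9.03 ± 0.29 (SD, n = 3), a log2 difference of 1.00 ± 0.15 (SE; limma adjusted p = 0.0314 over genes), and leaving out any single array other than d/d 1 ended that call (0.0580 to 0.151). The keratins Krt18 and Krt8 had log2 differences of 0.62 and 0.61 (limma adjusted p of 0.0582 and 0.0686), and Epcam of 0.14. The 4 with lower values were Calb1 at -1.21, Ehf at -0.53, Prom1 at -0.22 and Cldn3 at -0.18, none of which passed with all arrays. Without d/d 1, Calb1 fell by 1.94 and Ehf by 0.91 (adjusted p of 0.00819 and 0.00544). The summed intensity of the 14 markers lay between 3705 and 4409 in f/f and between 5194 and 5556 in d/d. In bulk tissue, more cells of a type and more RNA per cell cannot be told apart.

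Muc1 and Upk3bl were higher relative to the mean of these markers too, but Muc1 was not higher relative to Cdh1 alone. That mean includes the lower Calb1 and Ehf. It was 0.20 higher in d/d, less than the median difference of 0.35 over the list. Muc1 minus the mean log2 level of the 14 markers was -2.88, -2.89 and -2.73 for arrays f/f 1, 2 and 3, whereas it was -2.43, -1.90 and -1.70 for d/d 1, 2 and 3, and the groups did not overlap. That is a shift of 0.83 (exact permutation p = 0.1, adjusted 0.15), and for Upk3bl the shift was 1.84 (exact permutation p = 0.1, adjusted 0.15), again without overlap. Both genes already set the groups apart, and the marker mean moved much less than either. These permutation p-values therefore restate the rises and are no further evidence. With that mean subtracted from every probe set, which moved the median of all genes by -0.20, limma gave adjusted p of 0.0101 for Muc1 and 1.16e-05 for Upk3bl. The subtraction puts the variation of the same marker mean into every probe set, and it took the genes called from 192 to 662. These 2 p-values therefore cannot be compared with those of the main fit and are no stronger evidence of a rise. Muc1 set against Cdh1 alone shifted by 0.028, with overlapping groups (exact permutation p = 0.9, adjusted 0.9). Cdh1 had the highest log2 difference of the 14 markers, and this comparison was chosen after values were seen. The other markers rose less or were lower, so it does not place Muc1 against the epithelium as a whole. Upk3b against the 14 markers shifted by -0.13 (exact permutation p = 0.6, adjusted 0.72).

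**Figure D3:**
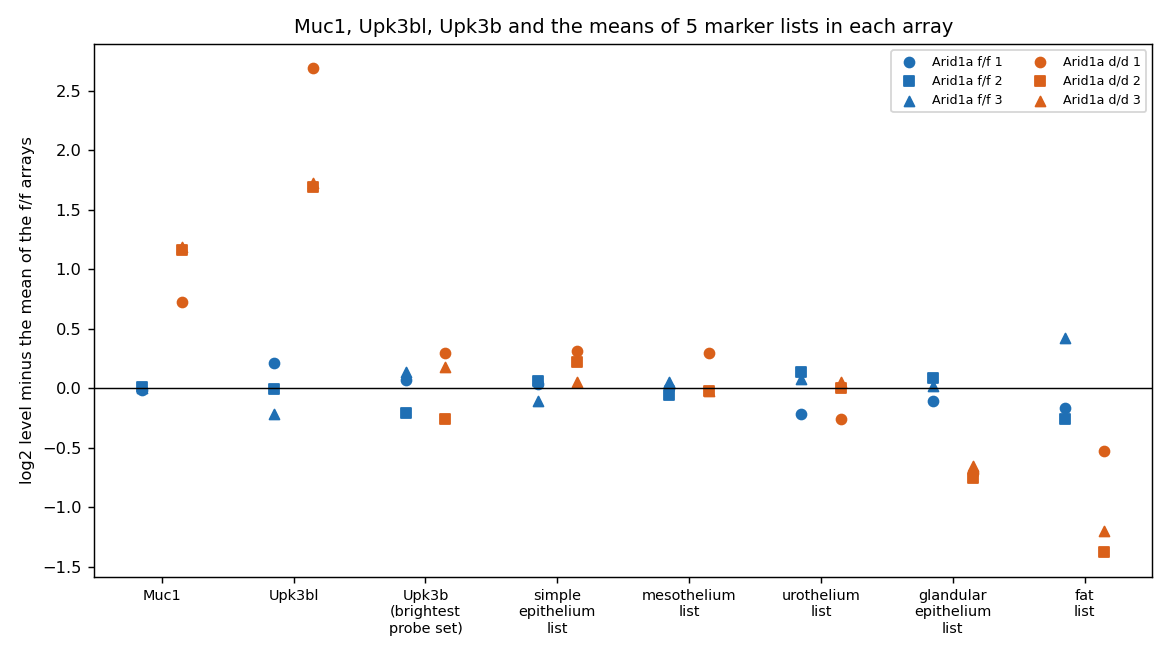
Log2 level of Muc1, Upk3bl, the brightest Upk3b probe set and the means of 5 marker lists (x axis), each minus its mean over the f/f arrays (y axis), in the 6 arrays; f/f is blue, d/d orange, and shapes give the replicate number. Muc1 and Upk3bl lie above 0 in the 3 d/d arrays, with d/d 1 lowest for Muc1 and highest for Upk3bl, while the fat and glandular lists lie below 0 in those arrays.

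Urothelial and mesothelial genes, of the cell types in which uroplakins are best known, were measured too. Of 15 listed urothelial genes 13 were measured, 0 passed and 8 lay under the median of all probe sets. Krt20, the keratin of the bladder's umbrella cells, lay between 2.14 and 2.15 in f/f and between 1.76 and 2.41 in d/d. The summed intensity of that list was 249 to 357 in f/f and 288 to 346 in d/d. Of 10 listed mesothelial genes 8 were measured, and 7 lay above the median of all probe sets. Of the 8, 1 rose, 0 fell and 7 did not pass, against 0.63% of all genes higher and 0.512% lower. The sum was 358 to 376 in f/f and 396 to 444 in d/d. The one that rose was Aldh1a2, an enzyme of retinoic acid synthesis that uterine stroma also makes (log2 difference 0.70 ± 0.099 SE; limma adjusted p = 0.0235). It did not pass relative to the 14 epithelial markers (0.50; adjusted p = 0.0906), nor when any single array other than d/d 1 was left out (0.0580 to 0.116). Values in this list were higher in d/d for 5 genes and lower for 3. Rspo1 was lower without overlap between the groups (log2 difference -0.45 ± 0.13 SE; limma adjusted p = 0.215). The sum is weighted towards bright genes such as Aldh1a2. The mean log2 level of the list overlapped between the groups, at 4.54 to 4.65 in f/f and 4.57 to 4.89 in d/d. Msln, the mesothelin gene, lay between 3.18 and 3.46 in f/f and between 2.92 and 3.42 in d/d. The part of mesothelial cells in the Upk3bl difference was not tested.

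Markers of other cell types included 3 genes that fell, where 0.512% of all genes fell. Of 10 listed gland genes 8 were measured and 2 fell, Foxa2 and Cxcl15, with summed intensities of 83.3 to 133 in f/f and 45.8 to 48.3 in d/d. The Foxa2 call was lost when array 2 or 3 of either genotype was left out (adjusted p of 0.0537 to 0.0838), and without f/f 2 the adjusted p of Cxcl15 lay just above the threshold. All 6 measured fat genes of 8 listed had lower values in d/d, with no overlap between the groups, and 0 passed. Over all genes, the groups of 1584 of 16813 lay apart with d/d below. The sum of the fat genes was 663 to 1054 in f/f and 259 to 549 in d/d. Of 10 stromal genes 1 fell, Thy1, a surface glycoprotein of fibroblasts and other cells (log2 difference -1.06 ± 0.13 SE; limma adjusted p = 0.0155), and the list median was -0.31. Values were lower in d/d for 9 of the 10, and Vcan was higher without overlap (0.69 ± 0.20 SE; limma adjusted p = 0.195). The Thy1 call, too, was lost without array 2 or 3 of either genotype (adjusted p of 0.0580 to 0.0860). None of the 6 smooth muscle, 4 endothelial, 6 leukocyte, 8 stratified epithelial, 4 ciliated or 4 ovarian genes measured passed, and the medians of these lists were -0.21, -0.67, -0.093, -0.047, -0.023 and 0.10. The part of these values in the Muc1 and Upk3bl differences was not tested. Arid1a itself was 0.667 of its f/f level in d/d, a log2 difference of -0.58 ± 0.087 (SE; limma adjusted p = 0.0342).

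Genes that work with mucins or uroplakins were taken as 5 lists, of which 49 distinct genes were measured. Of these, 3 rose, 0 fell and 46 did not pass, against 1.14% of all genes that passed in either direction. Among 15 proteins that bind, shed or relay signals from mucins, 2 rose and 0 fell (median log2 difference 0.026). Lgals3, galectin-3, a lectin that binds the glycans of MUC1 and MUC16, stood at 7.71, 7.76 and 7.52 in f/f 1, 2 and 3, and at 8.51, 8.72 and 8.58 in d/d 1, 2 and 3. The groups lay well apart, and the log2 difference was 0.94 ± 0.10 (SE; limma adjusted p = 0.0104), a rise of 1.92-fold. Its adjusted p was 0.0517 to 0.0573 when array 2 or 3 of either genotype was left out. Erbb3, a receptor of neuregulins that pairs with ERBB2, stood at 6.44, 6.64 and 6.13 in the f/f arrays and at 7.17, 7.37 and 7.22 in the d/d arrays, a rise of 0.85 ± 0.14 (SE; limma adjusted p = 0.0390). Its other, dim probe set gave 0.11, and the mean of both gave 0.48 (adjusted p = 0.102). Leaving out any single array other than d/d 1 ended the Erbb3 call as well (adjusted p of 0.0815 to 0.173).

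Several partners did not pass. Erbb2, the receptor that MUC4 binds, had a log2 difference of 0.48 ± 0.11 (SE; limma adjusted p = 0.106), with no overlap between the groups. Met, the receptor tied to MUC20, had -0.32 ± 0.083 (SE; limma adjusted p = 0.141), again without overlap, and its other, dim probe set had 0.28. Erbb2 passed without d/d 1 (0.58; adjusted p = 0.0252), with array weights (0.0450) and with the replicate block (0.0416).

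Of 9 genes of uroplakin transport and apical membrane traffic, 1 rose and 0 fell (median 0.10). Myo5b, a motor of recycling endosomes, stood at 4.35, 3.52 and 4.03 in f/f 1, 2 and 3, and at 5.02, 5.13 and 5.44 in d/d 1, 2 and 3. The groups did not overlap, and the rise was 2.35-fold (log2 difference 1.23 ± 0.21 SE; limma adjusted p = 0.0442 over genes and 0.0511 over probe sets). Its other 2 probe sets gave 0.57 and 0.079, and the mean of the 3 gave 0.63 (adjusted p = 0.0431). Rab27b, a GTPase that takes uroplakin vesicles to the apical membrane, had a log2 difference of 0.16 by its brightest probe set, 1443764_x_at. Its other probe set, 1439610_at, stood at 2.12, 2.04 and 2.21 in the f/f arrays and at 2.77, 2.76 and 2.74 in the d/d arrays, and rose by 0.63 ± 0.085 (SE; limma adjusted p = 0.0239 over probe sets). Averaged over the 6 arrays, both lay under the median of all probe sets, 2.69. The Myo5b call was lost when array 2 or 3 of either genotype was left out (adjusted p of 0.103 to 0.168), and with log2(value + 1) (0.0517).

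Mal2, a protein of apical sorting, had the largest log2 difference of these 9 genes, 1.37 ± 0.42 (SE; limma adjusted p = 0.223), with d/d 1 at 3.47 below f/f 3 at 3.58. Without d/d 1 it was 1.83 (adjusted p = 0.0103). Mal and Sytl2, which take part in the insertion of apical vesicles, had -0.50 ± 0.11 and -0.55 ± 0.17 (SE; limma adjusted p of 0.108 and 0.225). The list thus held genes with values on both sides of 0.

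Of 11 other mucins and mucin-like genes measured, 0 passed (median -0.050), and 8 lay under the median of all probe sets. Emcn, the endothelial sialomucin endomucin, had the lowest p, with a log2 difference of -0.67 ± 0.13 (SE; limma adjusted p = 0.0603). Muc3, an intestinal membrane mucin, had 0.22 at levels of 1.62 to 2.05. Ovgp1, the oviductal glycoprotein, stood at 5.91, 5.42 and 5.79 in f/f 1, 2 and 3, and at 4.15, 4.07 and 6.79 in d/d 1, 2 and 3. Array d/d 3 was the highest of the 6, and without it Ovgp1 was lower by a log2 difference of -1.60 (adjusted p = 0.0307). Of 7 other tetraspanins, relatives of Upk1a and Upk1b, 0 passed (median -0.26), with Tspan15 at -0.60 and Tspan13 at -0.26. Of 7 regulators tied to mucin transcription, 0 passed (median -0.13). Pgr and Esr1, the progesterone and estrogen receptors, had -0.28 ± 0.21 and -0.063 ± 0.091 (SE), and Nr3c1, the glucocorticoid receptor, had -0.28 ± 0.11 (SE).

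**Figure D4:**
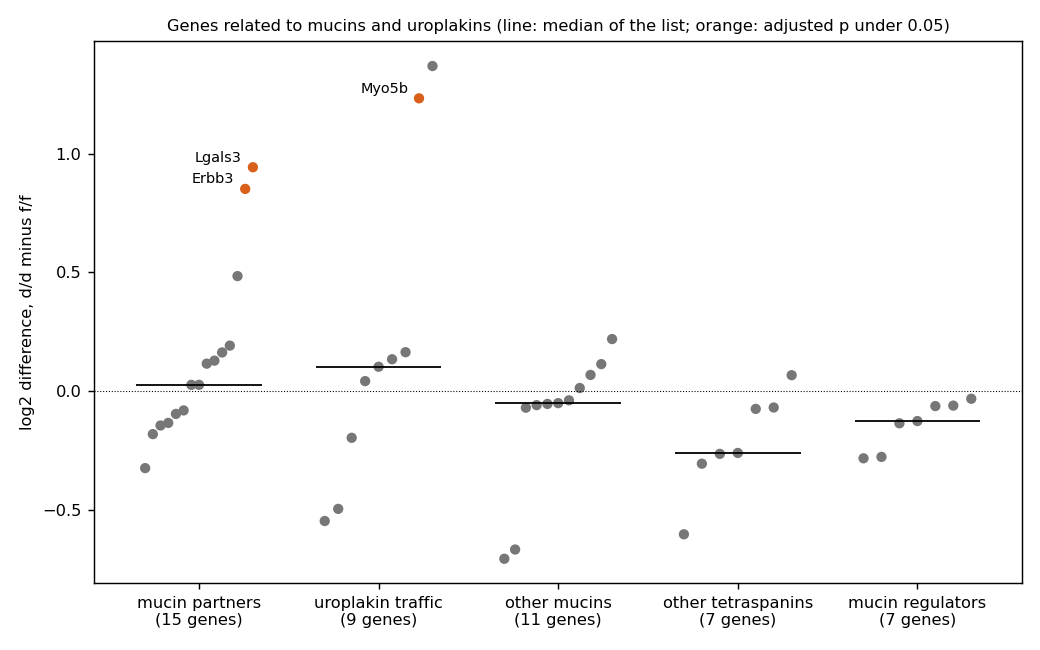
Log2 difference, d/d minus f/f (y axis), of each measured gene of the 5 related lists (x axis), by its brightest probe set; black lines are list medians and orange points have an adjusted p under 0.05 over all genes. Lgals3, Erbb3 and Myo5b are the called genes, and the list medians lie between -0.26 and 0.10.

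Muc1 followed no other member closely. Across the 6 arrays its level correlated with that of Upk3bl at r = 0.82 and with that of Upk3b at r = 0.021. Muc20, by 1451786_at only (mean level 2.65, under the median of all probe sets), went against both Muc1 (r = -0.84) and Upk3bl (r = -0.91). These are descriptions over 6 arrays that share the genotype difference. The named genes whose levels ran closest to Muc1 over the 6 arrays were Ankrd6 (r = 0.999), Dsg1b (r = 0.999) and Pls1 (r = 0.994). They are the highest of a search over the genes of the array, where r this high can arise by selection alone. Of these, Ankrd6 and Pls1 rose, by 0.86 and 0.84 on the log2 scale (limma adjusted p of 0.0202 and 0.0155), and Dsg1b, at 0.21, did not pass. For Upk3b, the uroplakin with the highest level averaged over all 6 arrays, the closest were Brs3 (r = 0.994), Slc38a1 (r = 0.988) and Msl3l2 (r = 0.987), and none of these passed.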

How the data were processed

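The authors deposited linear intensity values, 1 for each probe set of each array. The submitters' processing notes name RMA, which corrects background, normalises arrays and summarises probes, and give no version or settings. RMA compresses differences near the background. The arrays' genome build is not given in the sources used here. All values were put on the log2 scale, and nothing was added to them first. The design assumed log2 values, and the test was kept. The test was limma's (version 3.58.1, R 4.3.3; lmFit, eBayes, 2-sided, no covariate, 4 residual degrees of freedom and 4.19 from the prior) over 41420 probe sets. A second fit ran over 16813 genes, each by its brightest probe set with 1 symbol, and served the gene lists. Of the probe sets, 31562 carried 1 symbol in the annotation, 830 carried several and 9028 carried no symbol. The number of arrays limits the precision. Median intensities of the arrays lay between 6.34 and 6.59.

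Members, the 17 lists (134 of 166 distinct genes measured) and tests were chosen with earlier results of these data known. All members are named, with genes from among the 4 of smallest p per list and those past the threshold. Msln, Krt20, Epcam, Esr1, the epithelial markers with lower values, Upk3b's neighbours, the Rab27b probe set and the within-array comparisons were chosen after values were seen. The fit was tested on 41420 simulated probe sets, 50 at each fold: it found 8 of those set at 1.5-fold, 41 at 2-fold, 50 at 4-fold and 49 at 8-fold, and 8 of its 156 calls were false. Deviations from the group mean correlated at 0.461, 0.0228 and 0.178 between same-numbered arrays, and at -0.358 to 0.299 between differently numbered ones. These values do not settle whether the numbers pair the arrays. The labels state no pairing, so the main fit used none, and a fit with a replicate block is given below.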

Additional observations from a re-analysis of the deposited data

How the results depend on the processing

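The 2 rises among members and the absence of falls were kept under array weights, a replicate block, a robust fit with an intensity trend, repeated quantile normalization, median centring, without dim or _x_at probe sets, with log2(value + 1), relative to the epithelial markers, without both arrays numbered 1, at an adjusted p under 0.10 and, over genes, with the mean of all probe sets. With 1 array left out, member probe sets and member genes higher ranged from 0 to 2 and lower from 0 to 0, and related genes higher ranged from 0 to 5 and lower from 0 to 1. Related genes lower, 0 as reported, were 1 with the block, the trend, array weights, without both arrays numbered 1 and under 0.10, and 4 relative to the epithelial markers. The replicate block left Muc1 at an adjusted p of 0.0138 and Upk3bl at 0.00413.

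Values of members and of other listed genes that did not pass crossed 0 in some settings. Relative to the epithelial markers, Muc4 (1427398_at) stood at -0.18, Muc20 (1442960_at) at -0.17, Upk1b (1439760_x_at and 1435831_at) at -0.094 and -0.096, Upk2 at -0.097, Upk3b (1454881_s_at) at -0.13, Muc2 at -0.085, Wt1 at -0.10 and Epcam at -0.060. Without both arrays numbered 1, Muc20 (1442960_at) stood at -0.033, Upk1a at 0.12, Upk1b (1435831_at) at -0.077 and Upk3b (1454881_s_at) at -0.0046. Sp1 and Esr1 stood at 0.054 and 0.048 when their probe sets were averaged. With 1 array left out, Muc4 (1427398_at) ranged from -0.026 to 0.068, Muc20 (1442960_at) from -0.12 to 0.18, Upk1a from -0.10 to 0.076, Upk1b from -0.14 to 0.23 (1435831_at) and from -0.10 to 0.041 (1457065_at), and Upk3b from -0.038 to 0.24 (1454881_s_at) and from -0.23 to 0.12 (1434237_at). None of these passed.

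Over the whole array 217 probe sets and 192 genes passed. The block gave 574 and 457, array weights 329 and 381, no arrays numbered 1 657 and 546, an adjusted p under 0.10 462 and 403, and levels relative to the epithelial markers 1183 and 662, of which 15.4% of genes were higher against 55.2%. With 1 array left out the counts ranged from 37 to 971 and from 25 to 820. A looser threshold calls more by construction; otherwise the cause was not tested.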
